A study of Drosophila melanogaster with 6 samples.

Results

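In medulla neuroblasts of the *Drosophila* optic lobe, 428 regions were called as Su(H) peaks in both Su(H)-Dam replicates but overlapped no peak on the list of reproducible Su(H) peaks. They were chosen by their peak calls, from the 1461 Su(H) peaks of replicate 2, as those that shared at least 1 bp with a Su(H) peak of replicate 1 and no base pair with any of the 972 reproducible Su(H) peaks. In all, 1216 replicate 2 peaks overlapped a replicate 1 peak. The 428 regions made up 35.2% of them, and the other 788, called retained peaks here, overlapped a reproducible peak. A further 189 replicate 2 peaks had neither a replicate 1 partner nor a reproducible peak, and 56 had a reproducible peak but no replicate 1 partner.

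The study expressed a fusion of the bacterial enzyme Dam with Su(H) or with Ey, or Dam alone, and sequenced the methylated DNA, with 2 libraries of each and 6 in all. Su(H)-Dam larvae carried UAS-Dcr2, tubG80ts/CyO and SoxN-Gal4/UAS-Su(H)-Dam, Ey-Dam larvae had UAS-Ey-Dam in its place, and control larvae had UAS-Dam. Eggs were laid over 8 hours at 25 °C, kept at 18 °C for 3 days and then moved to 29 °C for 72 hours to allow Gal4 to act, and the optic lobes of about 100 brains of climbing larvae of the third instar went into each library. The SoxN-Gal4 line drives the UAS transgenes in medulla neuroblasts, so the fusions were present beside the endogenous proteins and each library pools many animals. Peak lists hold no expression values, so the labelled cell type could not be checked against markers. The paper gives total reads for each library. The peak lists used here carry no reads per peak, so the counting error of a peak is unknown. The sources used here do not state how Dam-only and fusion libraries were paired. With only 2 Dam-only libraries for all the fusion libraries, controls were used more than once. Ey-Dam and Su(H)-Dam may share controls, or the replicates of a factor may. The part of this in the agreement between lists was not tested.

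Su(H) is the DNA-binding protein of the Notch pathway. When the receptor Notch is cleaved, its intracellular domain joins Su(H) and the coactivator Mastermind on DNA and target genes are transcribed, whereas without Notch activity Su(H) can recruit corepressors to the same sites. Neuroblasts are the stem cells of the fly nervous system, and their need for Notch signaling in self-renewal differs by type. The paper describes type II neuroblasts as dependent on it, whereas in type I neuroblasts it seems dispensable. In medulla clones mutant for *Su(H)*, the paper saw no significant effect on neuroblast proliferation. In the progeny of neuroblasts, Notch signaling separates sister cell fates. Ey is a Pax6 transcription factor and one of the temporal factors that medulla neuroblasts express in sequence as they age. In DamID, the fused Dam methylates GATC sequences close to where the protein sits, so a peak is resolved to GATC fragments and not to a binding site.

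A Su(H) consensus was searched as CGTGAGAA, CGTGGGAA, TGTGAGAA and TGTGGGAA on both strands. It lay anywhere within 80 of the 428 peaks (18.7%), at 95 places. The consensus used in the paper is wider. Predicted Su(H) sites in its shorter *slp* enhancer do not match the letters searched here, although mutating all of them removed reporter expression. The windows below are Release 6 (dm6) reference sequence, each read 5′ to 3′ on the strand that carries the consensus, which is in capitals, with 26 bases on either side. They were chosen after the values were seen, to show sites in peaks at *N*, the gene for the receptor, *neur*, which encodes a ubiquitin ligase that acts on the Notch ligand Delta, *nab*, a transcriptional cofactor gene, and *wor*, a Snail family gene of neuroblasts, and 3 sites in 1 peak with no gene within 1000 bp.
N intron, chrX:3142631-3142690, plus strand: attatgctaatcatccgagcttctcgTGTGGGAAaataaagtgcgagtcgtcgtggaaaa
N intron, chrX:3143478-3143537, minus strand: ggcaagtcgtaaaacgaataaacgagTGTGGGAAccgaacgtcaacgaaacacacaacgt
neur intron, chr3R:9027734-9027793, minus strand: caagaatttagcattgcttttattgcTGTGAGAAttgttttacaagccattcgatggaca
neur intron, chr3R:9028570-9028629, minus strand: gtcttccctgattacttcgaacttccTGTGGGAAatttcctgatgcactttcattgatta
nab, chr3L:4156560-4156619, minus strand: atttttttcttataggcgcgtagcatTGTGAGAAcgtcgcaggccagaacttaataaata
nab, chr3L:4157175-4157234, plus strand: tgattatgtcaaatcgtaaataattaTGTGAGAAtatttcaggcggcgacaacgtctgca
wor, chr2L:15427104-15427163, minus strand: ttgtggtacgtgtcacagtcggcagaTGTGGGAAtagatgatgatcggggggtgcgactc
between genes, chr3L:765644-765703, minus strand: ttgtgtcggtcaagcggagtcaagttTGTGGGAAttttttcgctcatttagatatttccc
between genes, chr3L:766282-766341, plus strand: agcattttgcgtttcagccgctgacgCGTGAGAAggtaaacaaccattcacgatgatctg
between genes, chr3L:767032-767091, plus strand: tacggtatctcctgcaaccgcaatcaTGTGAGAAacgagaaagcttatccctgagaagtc

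The 428 peaks were mostly the weaker peaks of both replicate lists. The peak score is the value find_peaks gives from the log2 ratios of Su(H)-Dam over Dam alone, and for replicate 1 the highest score among the overlapping peaks was used. The median score was 2.73 (quartiles 2.53 to 2.95) in replicate 1 and 2.48 (2.26 to 2.71) in replicate 2, against 3.57 and 3.36 for the retained peaks. The median member of the group scored above 23.5% of all replicate 1 peaks and 24.0% of all replicate 2 peaks, whereas the median retained peak scored above 69.7% and 71.7%. The median FDR in replicate 2 was 0.000854 for the 428 peaks and 1.46e-05 for the retained peaks. These values come from the contrast that chose the peaks and are a description without a test. With 2 libraries for each factor, no exact permutation test over libraries could give a p below 0.333, and regions of the same libraries are not replicates, so no p-value is given for any comparison of peaks.

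The peaks also had much the same extent in both replicates. In 279 of the 428 (65.2%) the replicate 1 peak began and ended at the same GATC sites, against 525 of 788 (66.6%) of the retained peaks. Counting also those with other edges, 346 lay wholly inside replicate 1 peaks. The median length was 1251 bp over 4 GATC fragments, against 1573 bp over 5 fragments for the retained peaks. None of the replicate 1 partners of the 428 peaks overlapped a reproducible peak. Across peaks, which are not independent, the Spearman's rho between the replicates' scores was 0.397 in the 428 peaks and 0.669 in the retained peaks, over score ranges of unequal width. The reproducible list that sets these groups was itself made from the agreement of the same replicates, so the rho values only describe the choice.

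Peaks without a reproducible counterpart filled most of the lower part of the replicate 2 list. Of the 539 replicated peaks that scored below the replicate 2 median of 2.96, 396 had no reproducible peak, and of the 677 at or above it, 32 had none. When the list was cut into 10 score bins of about 146 peaks, from the lowest score up, the 428 peaks took 79, 90, 97 and 86 places in the first 4 bins, then 45 and 15, and between 2 and 6 in each of the higher bins. In the lowest bin 1 replicated peak was retained, and 143 were in the highest.

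**Figure D1:**
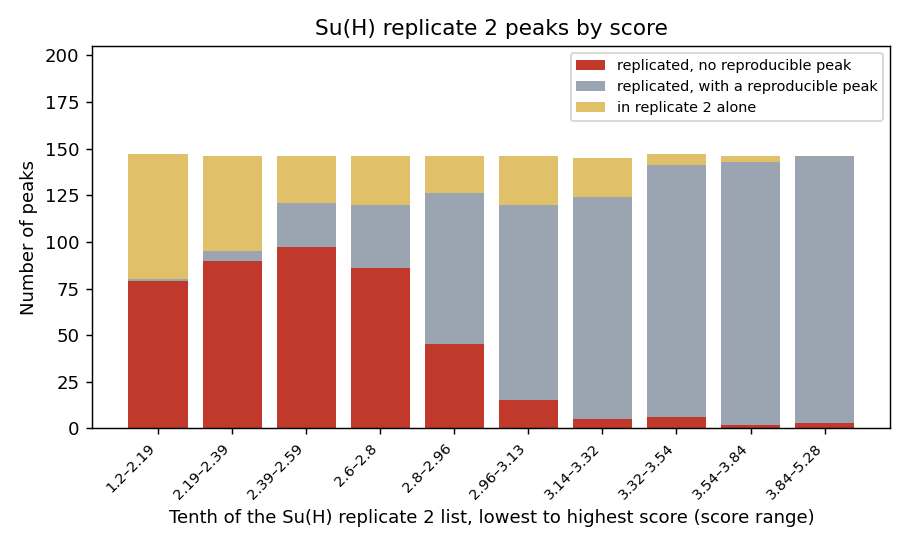
Number of Su(H) replicate 2 peaks (vertical axis) in 10 bins of the list from the lowest to the highest score (horizontal axis, score range of each bin). Red is the replicated peaks with no reproducible peak, grey the replicated peaks with one and yellow the peaks of replicate 2 alone, and the red part shrinks from 97 peaks in the bin of scores 2.39 to 2.59 to 3 peaks in the bin of scores 3.84 to 5.28.

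A small group stood apart by score and by shape. At or above the median score in both replicates there were 568 replicated peaks, and 14 of these had no reproducible peak. All 14 were joined in one replicate and divided in the other, that is, they overlapped more than 1 replicate 1 peak or shared a replicate 1 peak with another replicate 2 peak. Among the retained peaks in the same score range this held for 21 of 554 (3.79%), and among all 428 peaks for 16 (3.74%). This division was noticed after the values were seen, and its part in the missing reproducible peaks was not tested. The 14 peaks had a median length of 2263 bp and lay within 1000 bp of 15 genes.

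**Figure D2:**
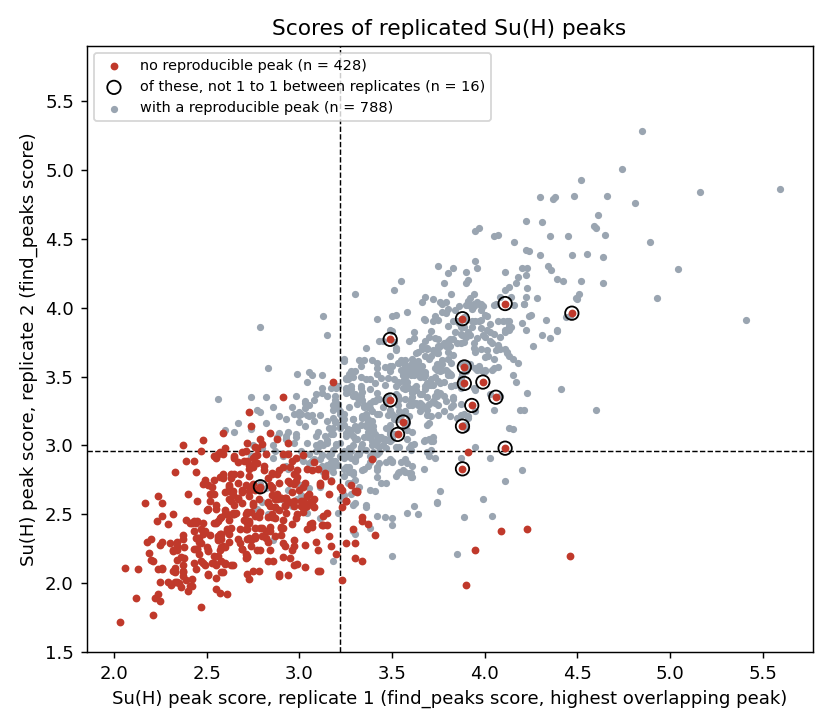
Score of each replicated Su(H) peak in replicate 1 (horizontal axis) and replicate 2 (vertical axis), in find_peaks score units. Red points are the 428 peaks with no reproducible peak, grey points the 788 retained peaks, and black rings the 16 red peaks that were not 1 to 1 between replicates. Dashed lines mark the list medians of 3.22 and 2.96, and all 14 red points at or above both lines are ringed.

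The peak at *wor*, which encodes a Snail family zinc finger protein expressed in neuroblasts, had the highest mean rank over both replicate lists. It spanned 15426018 to 15429795 on 2L, upstream of the gene with its centre 2326 bp from the start, and scored 4.47 in replicate 1 and 3.96 in replicate 2. In replicate 1 the same stretch was called as a pair of peaks, from 15426060 to 15427257 with a score of 3.91 and from 15427710 to 15429795 with a score of 4.47. Beyond it, 3 reproducible Su(H) peaks followed, the nearest 802 bp away, but none of them lay within 1000 bp of *wor*. Ey peaks covered the stretch in both Ey replicates, with scores of 5.97 and 5.81, and a reproducible Ey peak was there as well.

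*numb*, whose protein is inherited by one daughter of a dividing neuroblast and inhibits Notch there, showed the opposite division. In replicate 1, 1 peak ran from 9457034 to 9460434 on 2L with a score of 4.11. In replicate 2 it was called as a peak from 9457034 to 9457961 with a score of 2.98 and a peak from 9458718 to 9460434 with a score of 4.03. Both lay over introns at their centres. Another peak without a reproducible counterpart, from 9449210 to 9450089, scored 2.91 and 2.29, and a reproducible Su(H) peak from 9453747 to 9455680 lay between them. Ey replicate 2 had a peak of score 5.56 over part of the right-hand peak, and Ey replicate 1 had none there, while the reproducible Ey list had a peak over the same stretch, from 9459796 to 9460434.

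At *Hey*, a gene for a bHLH repressor that responds to Notch, a single replicate 1 peak from 7991791 to 7998458 on 2R, with a score of 3.88, met 3 replicate 2 peaks. These scored 2.83, 3.14 and 3.92, and the last of them, from 7997274 to 7999556, lay over the start of *Hey*. The nearest reproducible Su(H) peak was 163 bp beyond it, and no reproducible Su(H) peak lay within 1000 bp of *Hey* itself. At the replicate 2 peak over the start of *Hey* the Ey peaks scored 4.66 and 4.22, with no reproducible Ey peak. The Ey peaks of 5.27 and 4.95 that met the middle one ended at 7994096, more than 1000 bp from *Hey*.

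**Figure D3:**
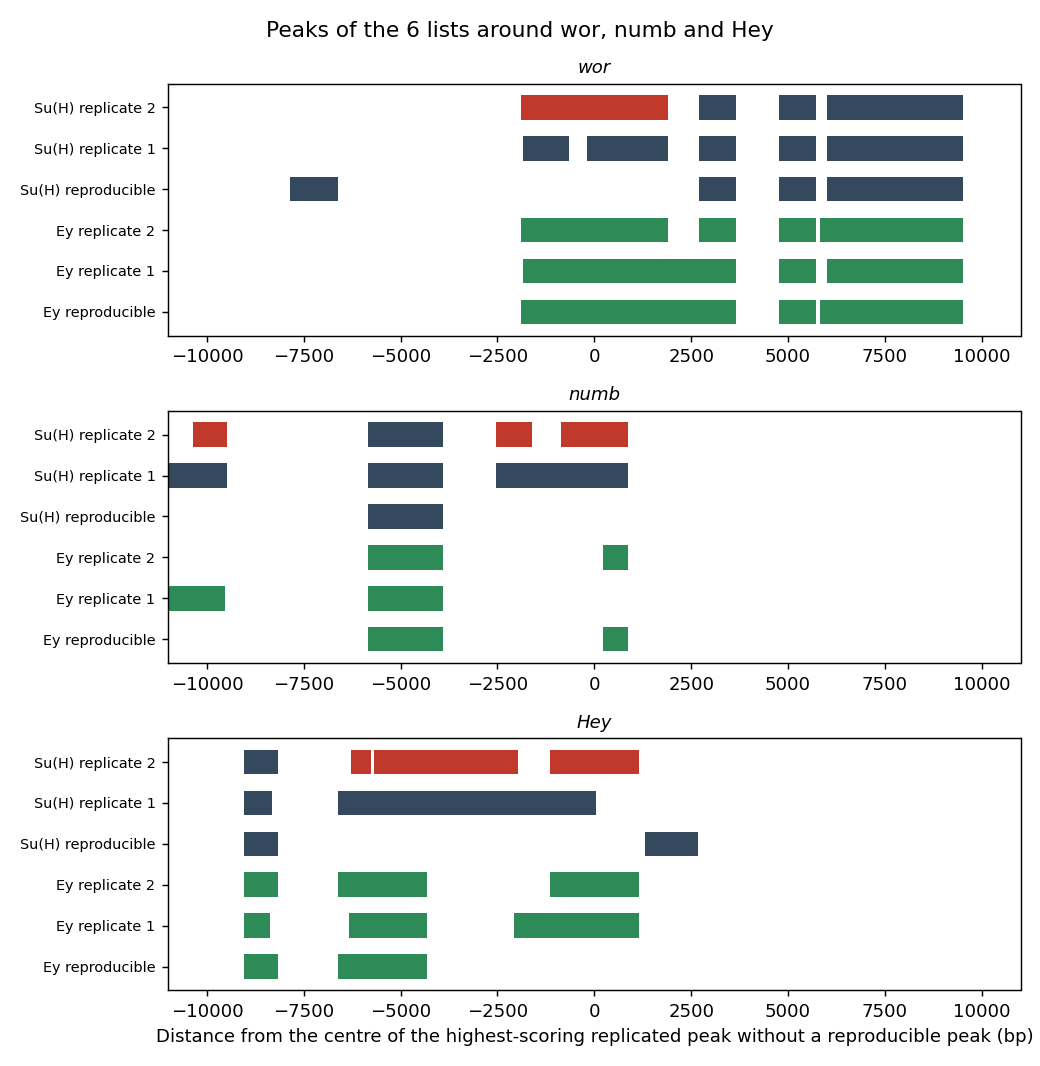
Peaks of the 6 lists around *wor*, *numb* and *Hey*, drawn as bars to scale, with the distance in bp from the centre of the highest-scoring red peak on the horizontal axis. Red bars are replicated Su(H) peaks with no reproducible peak, dark bars other Su(H) peaks and green bars Ey peaks, and in each panel a red stretch is divided in one Su(H) replicate and joined in the other.

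The other peaks of highest mean rank had the same divided shape. A pair of peaks on 3L, from 21785346 to 21786439 and from 21787192 to 21788632, met 1 replicate 1 peak of score 3.89, scored 3.45 and 3.57 in replicate 2 and had no gene within 1000 bp. Ey peaks of 5.86 and 5.07 covered the second of the pair and none covered the first. At *egr*, the gene for the fly TNF ligand Eiger, the peak from 10076677 to 10078919 on 2R scored 3.99 and 3.46, and its Ey peaks scored 6.39 and 5.47. In an intron of *Wnt4*, a Wnt ligand gene, the peak from 7270481 to 7273538 on 2L scored 3.93 and 3.29, with Ey scores of 5.70 and 4.90. At *Akap200*, an A-kinase anchoring protein gene, the peak from 8415911 to 8417224 on 2L scored 3.49 and 3.77, with Ey scores of 4.48 and 4.90. A peak on X from 9688317 to 9690668, next to lncRNA:CR42657 and lncRNA:CR44016, scored 4.06 and 3.35.

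Ey peaks, which had no part in choosing the regions, were found at most of the 428 peaks but at a smaller share than at retained peaks. Ey replicate 1 peaks overlapped 257 of the 428 (60.0%), beside 65.1% of all Su(H) replicate 2 peaks, and Ey replicate 2 peaks overlapped 281 (65.7%), beside 70.5%. Both Ey replicates had a peak at 231 (54.0%), beside 60.2% of all, so this share lay near the level of the whole list. For the retained peaks the share with both was 577 of 788 (73.2%), and for peaks of replicate 2 alone 28.6%. The order of these 3 groups was the same in each Ey replicate. Reproducible Ey peaks overlapped 146 (34.1%), beside 51.1% of all replicate 2 peaks and 69.3% of the retained peaks. Thus 96 of the 428 (22.4%) had Ey peaks in both replicates but no reproducible peak of either factor, against 61 retained peaks (7.74%) with Ey in both replicates and no reproducible Ey peak. No Ey peak was seen at 121 of the 428 (28.3%) and at 114 of the retained peaks (14.5%).

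**Figure D4:**
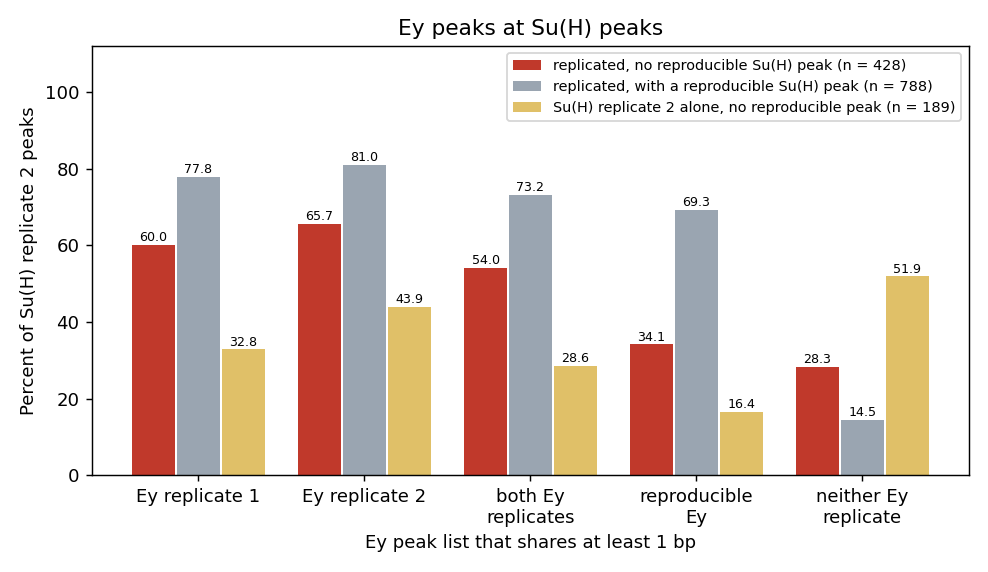
Percent of Su(H) replicate 2 peaks (vertical axis) that share at least 1 bp with a peak of each Ey list (horizontal axis). Red is the 428 replicated peaks with no reproducible Su(H) peak, grey the 788 retained peaks and yellow the 189 peaks of replicate 2 alone, and red lies between grey and yellow for every list shown.

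Lengths differed between these groups, and a longer peak can meet more Ey peaks. When an Ey peak had to cover the centre base of the Su(H) peak, the share with both Ey replicates was 51.6% for the 428 peaks and 67.5% for the retained peaks. Within the 428 peaks the share also differed by Su(H) score. With the peaks cut into 4 sets of 107 by replicate 2 score, it was 43.9 and 44.9% in the lower 2 sets, and 61.7 and 65.4% in the upper 2 sets, while median lengths were 1254, 1225, 1295 and 1162 bp. Where an Ey peak was present its median score was 4.86 in replicate 1 (n = 257) and 4.27 in replicate 2 (n = 281), against 5.55 and 4.93 at retained peaks. The part that shared Dam-only controls have in these overlaps was not tested.

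The 5 peaks of highest Ey rank had replicate 2 Su(H) scores from 2.39 to 3.46. The first lay next to *mat* on 3L, from 900125 to 902726, with Ey scores of 7.89 and 5.73 and Su(H) scores of 4.23 and 2.39. The second lay over a 5′ exon of *Syp*, a gene for an RNA-binding protein of late neuroblasts, from 20779727 to 20780167 on 3R, with Ey scores of 6.51 and 5.91 and Su(H) scores of 2.60 and 2.50. The others lay on 2L from 6215416 to 6217015 away from genes, at *egr*, and at *atl*, which encodes the endoplasmic reticulum fusion protein atlastin. All 5 had Ey peaks of at least 6.07 in replicate 1 and 5.47 in replicate 2, above the list medians of 5.14 and 4.42.

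The Su(H) consensus was found in the central 1000 bp of 62 of the 428 peaks (14.5%). The share was 20.2% over all Su(H) replicate 2 peaks, 23.6% in the retained peaks and 14.3% in the peaks of replicate 2 alone, and 9.93% over all consecutive 1000 bp windows of the 6 chromosome arms. Per 1000 bp of peak there were 0.157 sites, against 0.237 in the retained peaks and 0.106 over the chromosome arms. Of the 83 sites outside arm 2R, 38 read TGTGGGAA, 26 TGTGAGAA, 11 CGTGGGAA and 8 CGTGAGAA. The E-box CAGCTG was in the central 1000 bp of 43.7% of the 428 peaks, 39.5% of the retained peaks and 34.6% of all windows, and the repeat GAGAGAG in 18.2, 19.4 and 11.2% in the same order. A match to letters does not show that a protein binds there, and Su(H) sites with other letters were not counted.

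The consensus was unevenly spread between the peaks with and without Ey. Among the 121 peaks with no Ey peak, 31 (25.6%) held it in the central 1000 bp, against 22 of the 231 (9.52%) with Ey peaks in both replicates, which is close to the 9.93% of all windows. In the central 500 bp the shares were 18.2 and 4.76%, and over the whole peak 29.8 and 14.3%, with median lengths of 1206 and 1303 bp. The retained peaks showed the same order at higher levels, with 51 of 114 (44.7%) for no Ey and 107 of 577 (18.5%) for Ey in both replicates. In the peaks of replicate 2 alone it was 22 of 98 (22.4%) and 3 of 54 (5.56%). The E-box did not follow this order, with 40.5% of the peaks without Ey and 40.7% of those with Ey in both replicates among the 428. This split was examined after the values were seen and carries no test.

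**Figure D5:**
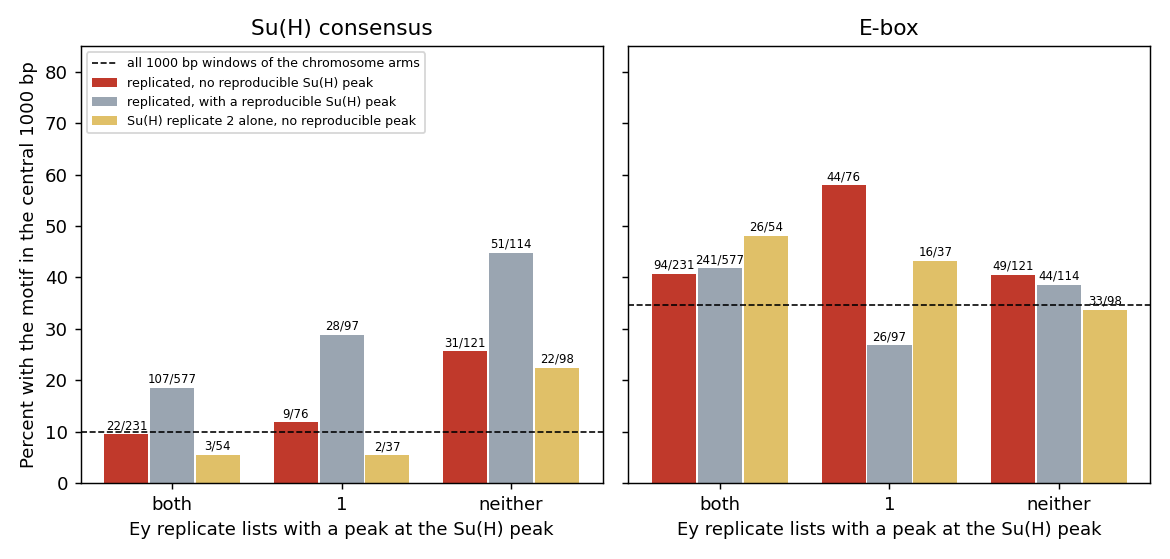
Percent of Su(H) replicate 2 peaks with the Su(H) consensus (left) or the E-box (right) in their central 1000 bp (vertical axis), by the number of Ey replicates with a peak there (horizontal axis). Red is the 428 peaks, grey the retained peaks, yellow the peaks of replicate 2 alone and the dashed line all 1000 bp windows, and the labels give peaks with the motif over peaks in the bar. In the left panel the bars for no Ey are the highest of each colour, 31 of 121 for red.

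Peaks with the consensus and without Ey lay both in genes and between them. The *N* peak from 3141476 to 3144060 on X, in the intron whose sites are printed above, scored 2.62 and 2.71 and lay 2954 bp from the nearest reproducible Su(H) peak. The intergenic 3L peak printed above, from 764773 to 767284, held 3 sites and scored 2.58 and 2.08. At *NetA*, a gene for the secreted guidance factor Netrin-A, the peak from 14627708 to 14628986 on X held 1 site and scored 2.89 and 2.53. By contrast the sites at *neur*, *nab* and *wor* lay in peaks with Ey in both replicates.

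By position, the 428 peaks lay mainly inside genes. The centre was in an intron in 209 (48.8%), between genes in 126 (29.4%), in a 5′ UTR in 40, in coding sequence in 32, in an exon of a noncoding gene in 13 and in a 3′ UTR in 8. Between genes lay 38.7% of the retained peaks and 26.5% of the peaks of replicate 2 alone. The centre was within 500 bp of a transcription start in 120 (28.0%), against 20.8% of the retained peaks, and the median distance was 1654 bp against 2079.5 bp. The peaks of replicate 2 alone were much like the 428, with 29.1% within 500 bp and a median of 1319 bp. They were spread over the arms with 79 on 2L, 65 on 2R, 100 on 3L, 104 on 3R, 75 on X and 5 on the small chromosome 4. GC content had a median of 42.9%, as in the retained peaks.

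Part of the peaks lay close to a reproducible Su(H) peak and part far from any. The median gap was 18577.5 bp, with 51 peaks (11.9%) within 1000 bp and 167 (39.0%) within 10000 bp of a reproducible Su(H) peak. The peaks of replicate 2 alone had similar values, with a median gap of 18171 bp, 9.52% within 1000 bp and 38.6% within 10000 bp. Another of the 428 peaks was within 10000 bp for 96 of them. The smallest gap was 5 bp, at a peak on 3R from 5027029 to 5028621 that scored 2.57 and 2.77, followed by 6 bp at *aop*, an ETS repressor gene, and 25 bp at a peak on 3L from 792597 to 794771.

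At the other limit of the rule, the smallest overlap with replicate 1 was 7.75% of the peak. This was the longest of the 428 peaks, with 5729 bp from 4187276 to 4193004 on X in an intron of *Fas2*, a cell adhesion gene, where 444 bp were shared and the scores were 2.58 and 2.35. Just outside the rule, a replicate 2 peak of score 1.81 near *nab* lay 13 bp from the nearest replicate 1 peak and one of score 3.21 near a threonine tRNA gene lay 36 bp away. The shortest of the 428 peaks, near the aldolase gene *Ald2*, had 275 bp and scores of 2.34 and 2.24. Retained peaks with the lowest mean rank scored 2.86 and 2.31 near *Kdm4B* and 2.77 and 2.54 in a region without genes, within the range of the 428 peaks.

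At gene level, 360 of the 428 peaks (84.1%) had a gene within 1000 bp, beside 81.2% of all Su(H) replicate 2 peaks. These were 536 genes, 2.95% of all annotated genes, and 447 of them code for protein. A reproducible Su(H) peak was also within 1000 bp of 120 of them, and 416 (2.29% of all genes) had none. Reproducible Su(H) peaks alone reached 992 genes (5.46%), and with the 428 peaks the number was 1408. Of the 416 genes, 128 had a reproducible Ey peak, 218 had Ey peaks of both replicates and 140 had no Ey peak within 1000 bp. Genes with reproducible peaks of both factors numbered 604, and 732 genes had a reproducible Ey peak and either a reproducible Su(H) peak or one of the 428. In no gene list below did more genes have one of the 428 peaks than a reproducible Su(H) peak.

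Of 26 Notch pathway genes matched, 8 had such a peak and 9 had a reproducible Su(H) peak within 1000 bp. Of the 8, 3 genes, *Su(H)*, *spdo* and *mam*, had no reproducible Su(H) peak within 1000 bp. At *spdo*, whose transmembrane protein promotes Notch signaling in daughters of asymmetric divisions, the peak from 30474685 to 30476618 on 3R scored 3.08 and 2.55 and had a reproducible Ey peak with replicate scores of 5.26 and 4.52. At *mam*, which encodes the coactivator Mastermind, the peak from 13990605 to 13992676 on 2R lay over a 5′ UTR, scored 3.12 and 2.42 and had no Ey peak. At *Su(H)* the peak from 15041279 to 15042513 on 2L scored 2.40 and 2.65, had no Ey peak and lay over coding exons. The Su(H)-Dam transgene carries *Su(H)* coding sequence and the Dam-only control does not, and the part of this in the peak was not tested. The smallest overlaps with replicate 1 included this peak, with 32.5% of its length.

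The other 5 Notch pathway genes, *numb*, *N*, *skd*, *neur* and *fng*, also had a reproducible Su(H) peak within 1000 bp. Besides the intronic *N* peak without Ey, *N* had a peak from 3136599 to 3137210 on X that scored 2.63 and 2.79, lay 41 bp from a reproducible Su(H) peak and had Ey scores of 5.82 and 5.40. At *skd*, which encodes a Mediator subunit, the peak from 21008809 to 21011474 on 3L scored 3.16 and 2.34 and held 2 consensus sites. The *neur* peak from 9027531 to 9029151 on 3R scored 2.71 and 2.18 and lay 67 bp from a reproducible Su(H) peak. *fng* encodes a glycosyltransferase that modifies Notch, and its peak scored 2.30 and 2.29 with no Ey.

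Of 15 E(spl) complex and Bearded family genes matched, 13 had a reproducible Su(H) peak and 2, the Bearded family genes *Brd* and *Tom*, had one of the 428 peaks in addition. The peaks at *Brd* scored 2.63 and 2.40 and those at *Tom* 2.68 and 2.29, each with reproducible Ey. *Hey* was the 1 gene of 6 other Hes and Hey type repressors that had such a peak. Of 10 proneural genes and partners the 1 gene was *emc*, which encodes an HLH inhibitor of proneural proteins, with peaks of 3.34 and 2.45, and of 2.95 and 2.73, neither with Ey.

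Of 17 genes of the medulla temporal sequence, 5 had such peaks and 8 had a reproducible Su(H) peak within 1000 bp. Of the 5, 3 had no reproducible Su(H) peak within that distance. *slp1*, a forkhead factor gene, had a peak from 3824355 to 3826234 on 2L that reached its first exon, with Su(H) scores of 3.28 and 2.71 and Ey scores of 6.35 and 5.05, and a neighbouring peak from 3826792 to 3828398 with 2.73 and 2.44. Each held 1 consensus site, and the first lay 1299 bp from a reproducible Su(H) peak. The paper reports reproducible Su(H) peaks at both enhancers it identified for *slp1* and *slp2*. Those peaks lie more than 1000 bp from *slp1* and so are not counted for it here. At *hbn*, a homeobox gene, the peak from 20959647 to 20960442 on 2R scored 2.64 and 2.64, with Ey scores of 4.45 and 3.56 and 1 consensus site. At *scro*, an NK-2 homeobox gene, the intronic peak from 24742063 to 24742766 on 3L scored 2.32 and 2.09, with Ey scores of 3.69 and 4.19. No reproducible Su(H) peak was within 1597506 bp of it, the widest gap in the group. *hth* and *opa*, early temporal genes for a homeobox and a zinc finger protein, had 3 and 2 such peaks beside reproducible ones, and those of highest replicate 2 score had 2.98 and 2.74 at *hth* and 2.91 and 2.94 at *opa*.

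The list of neuroblast and differentiation genes held the most, with 15 of 31 genes, beside 2.95% of all annotated genes. A reproducible Su(H) peak lay within 1000 bp of 20 of the 31, and 6 of the 15 had none. These were *wor*, *cas*, *svp*, *insc*, *nab* and *baz*. At *cas*, a zinc finger gene of embryonic neuroblasts, the peak from 5716403 to 5717215 on 3R lay over the start of the gene and scored 2.75 and 2.84, with Ey scores of 3.74 and 3.62. The peak at *svp*, a nuclear receptor gene, scored 2.24 and 2.63. *insc*, whose product couples the polarity complex to the spindle, had a peak over its 5′ UTR from 20835231 to 20837181 on 2R with 3.08 and 2.61 and reproducible Ey scores of 5.49 and 4.36 in the replicates. *nab* had 2.78 and 2.61, and *baz*, the Par-3 polarity gene, had 2.56 and 2.34 with an Ey peak of 4.44 in replicate 2 alone. The 9 genes that also had a reproducible Su(H) peak were *numb*, *pros*, *ham*, *br*, *ttk*, *lola*, *Syp*, *nerfin-1* and *grh*, with replicate 2 scores between 2.39 and 4.03 at their strongest peak.

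Cell cycle genes had 6 of 40, and *CycB3*, a mitotic cyclin, and *Cdk4*, the partner of Cyclin D, lacked a reproducible Su(H) peak. The *CycB3* peak from 24867662 to 24869408 on 3R overlapped its 3′ end, scored 2.85 and 2.64, held 1 consensus site and had an Ey peak in replicate 2 alone. The *Cdk4* peak scored 2.18 and 2.30 with no Ey. The others were *stg*, the Cdc25 phosphatase that starts mitosis, with 3.39 and 2.90, *trbl*, which promotes its degradation, with 2.94 and 2.74, *CycE* with 3.03 and 2.55, and *E2f1* with 2.55 and 2.54. At *stg* and *trbl* the peaks lay 106 and 35 bp from a reproducible Su(H) peak.

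Genes of medulla neuron identity had 7 of 23, 4 of them without a reproducible Su(H) peak. Among these, *Vsx1*, a homeobox gene, had an intronic peak with Su(H) scores of 2.99 and 2.82 and reproducible Ey. *toy*, a Pax6 gene on chromosome 4, had a peak from 992509 to 993379 that scored 2.59 and 2.76 with no Ey, and *ct*, a homeobox gene, had peaks of 2.84 and 2.41, and of 2.97 and 2.27. *pros*, *hth* and *tup* also had reproducible Su(H) peaks. Of 10 glial genes 1 had such a peak, *pnt*, which encodes an ETS activator of the EGFR pathway and scored 2.39 and 2.02.

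EGFR and Ras genes had 6 of 20, with no reproducible Su(H) peak at *vn*, a neuregulin-like ligand gene (2.91 and 2.40), and *aos*, a secreted inhibitor gene (3.34 and 2.16). The others were *S*, *Raf*, *pnt* and *aop*. BMP, Wnt, Hedgehog and JAK/STAT genes had 6 of 36, and all 6, *Wnt4*, *tkv*, *shn*, *pan*, *ptc* and *fz2*, also had a reproducible Ey peak within 1000 bp. *tkv*, the BMP type I receptor gene, scored 2.17 and 2.58, and *shn*, a zinc finger gene that acts in BMP responses, scored 2.82 and 2.33. Growth and insulin genes had 3 of 15, *Rheb*, the GTPase upstream of TOR, with 3.07 and 2.59 and no reproducible Su(H) peak, and *InR* and *Mnt*, which had one.

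Axon guidance and adhesion genes had 9 of 48. Those without a reproducible Su(H) peak were *Tl*, the Toll receptor gene, *NetA*, *klg*, an immunoglobulin adhesion gene, and *Fas2*, all in introns, with replicate 2 scores between 2.35 and 2.58. Of 21 genes of neuron function (transmitters, channels and synapse proteins) and 39 genes of tissues outside the brain, none had one of the 428 peaks, and 1 and 2 had a reproducible Su(H) peak. The shares of all annotated genes were 2.95% and 5.46%, so in lists this small these counts lie near the level of all genes. Long genes with wide introns can collect more peaks, and gene length was not matched between the lists.

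In all, 37 genes had 2 or more of the 428 peaks. The noncoding gene lncRNA:CR44357 on X had 5, with replicate 2 scores up to 3.08, and 1 of these, from 7272053 to 7273135, scored 4.09 in replicate 1 and 2.38 in replicate 2. *numb*, *hth*, *lov*, which encodes a BTB protein, *siz*, which encodes an exchange factor for Arf GTPases, *Mur2B*, a mucin-related gene, and *CG1677* had 3 each. *CG1677* lies within the span of lncRNA:CR44357, and *br* within that of *Mur2B*, so the peaks near each inner gene are counted for both. The *lov* peaks scored between 2.40 and 3.04 in replicate 2 and all had reproducible Ey, whereas the *siz* peaks, between 2.38 and 2.95, had Ey peaks in both replicates and no reproducible Ey.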

How the data were processed

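Peak lists from DamID-seq of 2 Su(H)-Dam and 2 Ey-Dam libraries, each set against Dam alone, were used. Per the study's methods, the authors used damidseq_pipeline with Bowtie2 and dm6 to obtain log2 ratios over Dam alone per GATC fragment. The deposited replicate lists hold find_peaks peaks at FDR under 0.01, with the authors' peak score and, as another value, the FDR of each peak. The deposited reproducible lists hold peaks called at FDR under 0.1 that passed IDR 0.05, with an IDR score, which was not used as a measure. Deposited lists of overlapping peak pairs repeat the same peaks and were not used. All peaks began and ended at GATC sites of Release 6.

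Overlap meant at least 1 bp, and a gene counted when a peak lay within 1000 bp (Ensembl release 115, 18164 genes without transposon insertions). Motifs were counted in the central 1000 bp. Overlap code was tested on simulated intervals. Regions are not replicates, so no test was run. The regions and gene lists were chosen with earlier results of these data known. Named were the 10 regions of highest mean score rank, up to 6 genes of each list, the regions at the limits of the rule, the 5 of highest Ey rank, the genes with most regions and the longest and shortest region. Other names were chosen after their values were seen, and 1 gene that the rule names is not reported here. *Dl*, *Tor* and other changed symbols were matched by their annotated names. Alternatives were stricter overlaps, the replicate 1 list, higher scores, other distances and windows, and leaving out each replicate. Computation used pandas 2.3.3 and numpy 2.4.6 in Python 3.11.15, rank correlations and intervals scipy 1.17.1, and plots matplotlib 3.10.9.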

Additional observations from a re-analysis of the deposited data

How the results depend on the processing

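No paired analysis was possible because the results come from no test. Taken from the replicate 1 list, the peaks had a median score of 2.72 and a length of 1285 bp. At or above the median score in both replicates there were 14 peaks with a median score of 3.40, a length of 2263 bp, Ey peaks in both replicates at 64.3% and 15 genes within 1000 bp. Without replicate 1 or replicate 2 of Su(H)-Dam, that is, peaks of one list with no reproducible peak, there were 612 to 617 peaks with median scores of 2.43 to 2.70, lengths of 1138 to 1282 bp, Ey in both replicates at 46.2 to 49.3% and 718 to 772 genes. Without one of the Ey-Dam replicates the Ey share was 60.0 to 65.7%. With Ey peaks at or above the median of their list the share was 12.9%, against 44.0% for the retained peaks, and with an Ey peak over the centre base, chosen after seeing the data, it was 51.6%. Within 5000 bp there were 994 genes. Any base in a gene held for 79.4% of peaks, against 70.6% by the centre. The Su(H) consensus was in 8.64% of the central 500 bp and in 18.7% of whole peaks. Under the other alternatives run, values stayed within the spread between replicates, within 1.5 times for counts, or within the exact binomial interval for shares with the motif. That interval treats peaks as independent, which they are not, so it serves only as a yardstick and not as a test. By the paper's read totals the fusion libraries were of similar depth, and the Dam-only libraries were unequal. Depth at each region was not in the lists, so a peak absent from one cannot be told apart from one too shallow to call.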

Other observations

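Outside the gene lists, 69 of the 536 genes near the 428 peaks are annotated as noncoding RNA genes (2.12% of 3261), against 206 (6.32%) near reproducible Su(H) peaks, while protein-coding genes were reached by 3.21% and 5.43%. Small RNA genes were also among them. The 428 peaks lay near 12 of 290 tRNA genes (4.14%), grouped at 6 peaks, and near 7 of 269 snoRNA genes (2.60%) at 4 peaks. These shares stand beside 2.95% of all annotated genes. None of these small RNA genes had a reproducible Su(H) peak within 1000 bp, as held for 416 of all 536 genes near the 428 peaks. With so few peaks, this count is not read as a trait of small RNA genes. Reproducible Su(H) peaks lay near 12 other tRNA genes and 8 other snoRNA genes. The peaks were weak at the snoRNA host gene *Uhg2* (2.12 and 1.89) and stronger at tRNA:Arg-TCG-2-3, next to *pyd* (2.98 and 2.91), where Ey peaks scored 4.35 and 4.62. These genes were chosen after their values were seen.

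Some peaks were far apart in score between the Su(H) replicates. A peak on 2L from 8796362 to 8797562, with no gene within 1000 bp, scored 4.46 in replicate 1 and 2.20 in replicate 2, and its Ey peaks scored 6.33 and 3.77. A peak near *CG42353* and *CG42354* on X scored 3.95 and 2.24, with Ey peaks in both replicates, 3.64 in replicate 2 and higher in replicate 1. The peak at *mat* scored 4.23 and 2.39, with Ey scores of 7.89 and 5.73. At each of these the score was higher in replicate 1 for both factors. The lists as a whole also have higher medians in replicate 1 for both factors (3.22 and 2.96 for Su(H), 5.14 and 4.42 for Ey).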
